A study of Homo sapiens with 12 samples.

Results

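The genes described here encode 6 ligands of the epidermal growth factor receptor (EGFR), which are AREG, EREG, HBEGF, TGFA, BTC and EPGN, and the 2 membrane proteases that release them from the cell surface, ADAM10 and ADAM17. They were chosen by symbol, as the rows of the deposited count table whose Ensembl identifiers carry these names. They make up 8 of the 39266 genes in the table, and all 8 were among the 20820 genes with enough counts to be tested. The data are RNA-seq read counts from PC9-OR cells, a non-small cell lung cancer (NSCLC) line of the PC9 family, which the series title places in a study of resistance to osimertinib. PC9 itself is a lung adenocarcinoma line with an activating EGFR mutation, and osimertinib is a covalent inhibitor of the kinase of mutant EGFR. The 12 libraries fall into 4 groups of 3: cells given osimertinib (OSI), cells given dauricine, a plant alkaloid (DAC), cells given both (DAC+OSI), and cells labelled Control, with no further word on what they received. All groups are the same cell line, so whatever made it resistant is shared by the Control cells. The labels name no dose and no exposure time. Separate cultures are not named for the 3 libraries of a group, so the spread behind each p-value may be only technical.

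Each EGFR ligand is made as a precursor that spans the plasma membrane, with an EGF-like domain outside the cell. A protease called a sheddase cuts the precursor and frees that domain, which then binds EGFR on the same or a neighbouring cell; BTC, HBEGF and EREG also bind ERBB4. In mouse cells ADAM17 is the main sheddase of AREG, EREG, HBEGF, TGFA and EPGN, and ADAM10 that of BTC. Several ligand genes are themselves induced downstream of EGFR through the ERK pathway, so their messages are often read as a sign of receptor signalling in epithelial tumours. The counts measure messenger RNA and carry no information on shedding or on ligand protein.

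The stretch just before the start site is shown for the 4 ligand genes with the largest differences between groups. These are the 150 bases upstream of the start in RefSeq on GRCh38.p14, each read 5′ to 3′ on the strand of its gene, at chr4:74444986-74445135 (plus strand) for AREG, chr4:74364995-74365144 (plus strand) for EREG, chr4:74308320-74308469 (plus strand) for EPGN and chr5:140346604-140346753 (minus strand) for HBEGF. Capitals mark TGACGTCA (the cyclic AMP response element), TATAAA (the TATA box) and GGGCGG (the GC box), each searched on both strands, so that a GC box on the other strand reads CCGCCC.
AREG: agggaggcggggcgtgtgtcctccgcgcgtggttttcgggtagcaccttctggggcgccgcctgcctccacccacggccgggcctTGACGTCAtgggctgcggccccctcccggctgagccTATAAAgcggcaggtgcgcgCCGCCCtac
EREG: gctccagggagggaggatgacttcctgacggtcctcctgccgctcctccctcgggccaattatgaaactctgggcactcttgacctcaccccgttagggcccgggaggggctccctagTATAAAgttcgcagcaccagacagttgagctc
EPGN: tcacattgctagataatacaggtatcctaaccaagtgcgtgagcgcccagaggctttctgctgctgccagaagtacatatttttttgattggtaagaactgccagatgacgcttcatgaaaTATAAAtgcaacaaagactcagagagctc
HBEGF: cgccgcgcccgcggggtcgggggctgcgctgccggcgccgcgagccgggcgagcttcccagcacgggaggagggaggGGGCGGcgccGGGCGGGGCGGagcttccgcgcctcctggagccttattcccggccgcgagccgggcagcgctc
Counting the base before the start as -1, TATAAA begins at -29 in AREG, -32 in EREG and -29 in EPGN, and TGACGTCA begins at -65 in AREG. HBEGF has GGGCGG at -73, -63 and -58, the last pair overlapping, and at -176 and -163 further upstream. In windows of 300 bases around the start (250 before, 50 after), TATAAA was found in 3 of the 8 genes and in none of the windows of HBEGF, TGFA, BTC, ADAM10 and ADAM17. It occurs in 11.5% of the 35116 RefSeq windows of that size. The AP-1 site, TGANTCA, is in 7.71% of all windows and in none of these. The ETS site, CCGGAA, is in 17.2% of all windows. It was found in AREG (at -236), in ADAM17 (at -26 and 9) and at 1 of the 2 start sites of TGFA (at -208). GGGCGG is common, at 44.95% of all windows. TGACGTCA, which AREG alone of the 8 carries, is in 1.85%. A match is only a description of the letters.

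Library totals ran from 24.9 to 66.9 mega-counts (M), and the smallest belonged to the library DAC+OSI 2. Levels are given as CPM, a gene's counts per M of its library after TMM scaling, which sets library sizes after trimming the genes that differ most. For scale, 3 counts, the level that a count of 0 allows, are between 0.0449 and 0.120 CPM of the library total. These limits cover counting error only, since reads amplified by PCR are not independent molecules. In 2 libraries, DAC+OSI 2 and Control 2, genes deviated from the group mean in step with their GC content. Across 20443 genes the rank correlation of this deviation with GC was 0.57 in DAC+OSI 2 and 0.56 in Control 2, between -0.52 and -0.37 for the remaining DAC+OSI and Control libraries, and between -0.09 and 0.06 for OSI and DAC. Where a call of any of the 8 genes or a count of called pathway genes moved without those libraries, the value from a fit to the other 10 libraries is given with it. Epithelial markers summed to between 9719 and 20215 CPM in every library, with 7 of 9 above 1 CPM in a library; NKX2-1 and SFTPB, which mark the alveolar lineage, were near 0. Summed fibroblast markers were 6.11 to 7.93 CPM in OSI, 9.66 to 10.5 CPM in DAC, 26.5 to 92.6 CPM in DAC+OSI and 10.2 to 21.0 CPM in Control libraries. In DAC+OSI this sum was mostly COL1A1 (25.3 to 78.3 CPM) with some COL1A2 (0.905 to 13.6 CPM). The other fibroblast markers stayed low there, COL3A1 at up to 0.681, LUM at up to 0.0355 and DCN at up to 0.0973 CPM. Immune markers summed to 7.33 to 8.14 CPM in OSI, 20.6 to 26.4 CPM in DAC, 13.99 to 49.9 CPM in DAC+OSI and 13.2 to 19.6 CPM in Control libraries, and endothelial markers to 10.6 to 13.2, 8.65 to 9.92, 12.4 to 28.4 and 4.95 to 5.33 CPM in the same order of groups. The part of these markers in the results below was not tested.

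Under osimertinib, 5 of the 6 ligand genes fell: AREG, EREG, HBEGF, TGFA and EPGN. The falls ran from 1.35-fold for TGFA to 5.20-fold for EPGN. Neither sheddase passed the test. Among all genes tested, 8.23% were lower in OSI than in Control at the same threshold, an adjusted p under 0.05. Libraries of the groups did not overlap for 6 of the 8 genes, all lower in OSI, a pattern found in 18.7% of genes tested. In the 10-library fit 7 genes were called lower, with BTC and ADAM17 added. That fit called 9076 genes in all, against 3926 with 12 libraries. The median log2 change of the 6 ligand genes was -1.60, and that of all genes -0.01.

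Under dauricine, 4 ligand genes fell, EREG, HBEGF, TGFA and EPGN, where 4.11% of genes tested were called lower. The falls lay between 1.53-fold (TGFA) and 2.17-fold (EPGN), and AREG was 1.58-fold lower with an adjusted p of 0.0594. The libraries did not overlap, with DAC lower, for 5 of the 8 genes and for 19% of genes tested. The median log2 change of the ligand genes was -0.66, against 0.01 over all genes. Without any 1 of the libraries DAC 1, DAC 2, DAC 3 or Control 1 the number called was 2, while 7 genes were called in the 10-library fit and 7 once the GC trend was corrected.

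With both compounds, 5 ligand genes fell: AREG, EREG, HBEGF, TGFA and EPGN. Their falls ran from 1.83-fold (TGFA) to 7.31-fold (EPGN), and their directions and calls held in all 15 alternatives, leaving out each library included. The share of all tested genes called lower in this comparison was 12.8%. For 5 of the 8 genes all DAC+OSI libraries lay below all Control libraries, as they did for 18% of genes tested. The median log2 change was -1.80 for the ligand genes and 0.03 for all genes. The 3 comparisons share the Control libraries and are therefore not independent of each other.

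**Figure D1:**
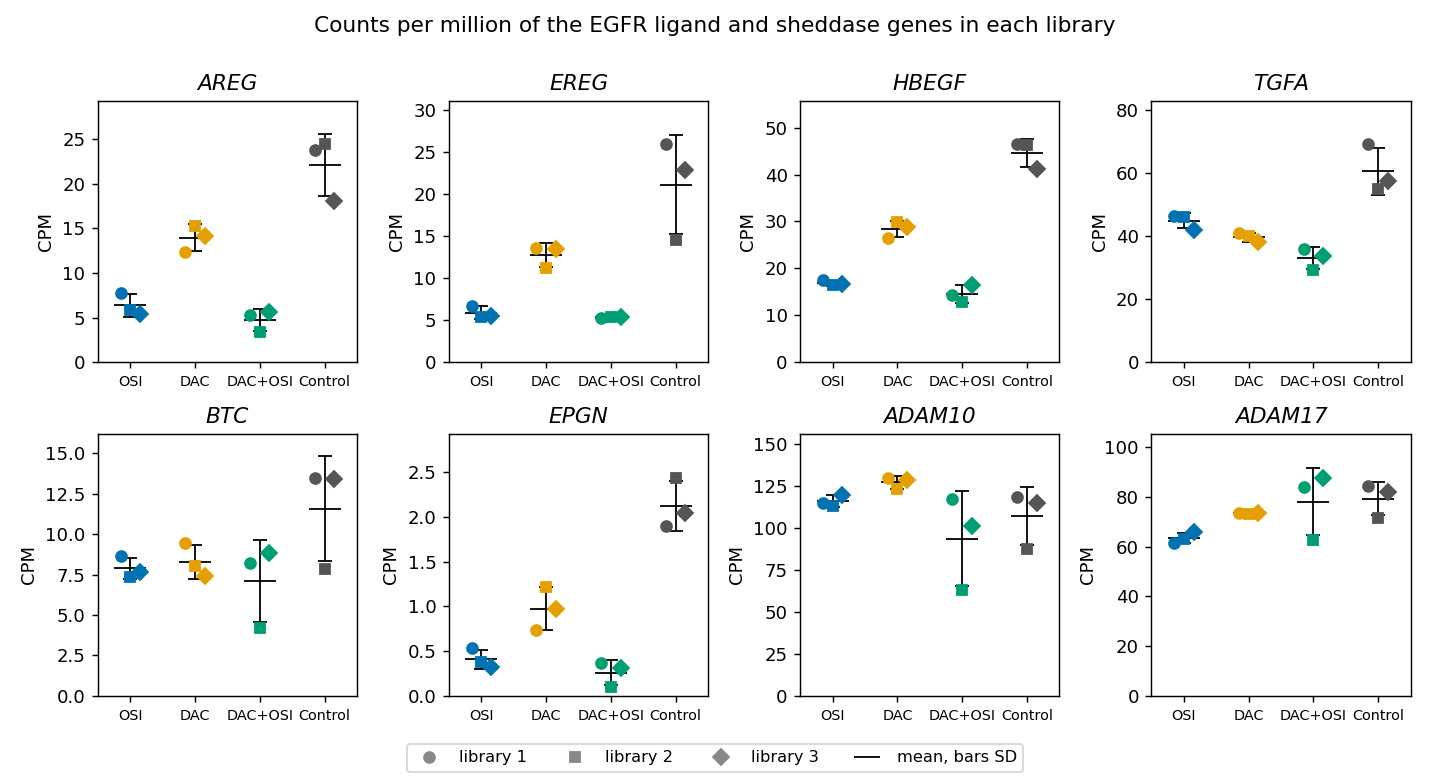
CPM (linear axes that start at 0) of the 8 genes in each of the 12 libraries, 1 panel per gene, with groups in the order OSI, DAC, DAC+OSI and Control; symbols are libraries, lines group means and bars the SD. For AREG, EREG, HBEGF, TGFA and EPGN every library of the 3 treated groups lies below every Control library, while the DAC+OSI libraries of BTC, ADAM10 and ADAM17 overlap the Control range.

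AREG encodes amphiregulin, a ligand of EGFR that is often made by lung tumour cells. Its level was 7.81, 5.86 and 5.45 CPM in the OSI libraries, 12.4, 15.3 and 14.2 CPM in the DAC libraries, 5.36, 3.36 and 5.60 CPM in the DAC+OSI libraries, and 23.8, 24.4 and 18.1 CPM in the Control libraries. All 9 treated libraries lay below all Control libraries, with DAC between the osimertinib groups and Control. AREG fell 3.47-fold in OSI (log2 change -1.80 ± 0.21 (SE), adjusted p = 7.61e-05) and 4.56-fold in DAC+OSI (-2.19 ± 0.21, adjusted p = 9.19e-06). In DAC its log2 change was -0.66 ± 0.20 with an adjusted p of 0.0594, and 9 of 15 alternatives called it, among them the 10-library fit (-0.59, adjusted p = 0.00309), DESeq2 (adjusted p = 0.0135), limma-voom (adjusted p = 0.0354) and the fit without Control 3 (-0.83, adjusted p = 0.0438). The adjusted p over these alternatives ran from 0.00309 to 0.188. In bulk RNA, fewer cells that express a gene and less of its RNA per cell cannot be told apart.

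EREG encodes epiregulin, which lies next to AREG on chromosome 4 and also acts on ERBB4. It had 6.77, 5.43 and 5.56 CPM in OSI, 13.7, 11.2 and 13.5 CPM in DAC, 5.34, 5.35 and 5.42 CPM in DAC+OSI, and 26.0, 14.5 and 22.9 CPM in Control libraries. The lowest Control library, Control 2, lay just above the highest DAC library. EREG fell 3.58-fold in OSI (-1.84 ± 0.20, adjusted p = 4.00e-05) and 3.94-fold in DAC+OSI (-1.98 ± 0.20, adjusted p = 1.26e-05). In DAC it fell 1.66-fold (-0.73 ± 0.19, adjusted p = 0.032), a call that was lost without DAC 1 (adjusted p = 0.0675), DAC 2 (0.104), DAC 3 (0.0796), Control 1 (0.0969) or Control 3 (0.0803). The 10-library fit gave -0.95 with an adjusted p of 4.17e-06.

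HBEGF encodes heparin-binding EGF-like growth factor, which binds EGFR, ERBB4 and the heparan sulfates of the matrix. The OSI libraries had 17.5, 16.5 and 16.7 CPM, the DAC libraries 26.5, 29.9 and 28.9 CPM, the DAC+OSI libraries 14.3, 12.8 and 16.5 CPM, and the Control libraries 46.5, 46.3 and 41.2 CPM. The 4 groups were separate except that the highest DAC+OSI library lay within the OSI range. HBEGF fell 2.65-fold in OSI (-1.40 ± 0.13, adjusted p = 8.79e-06), 1.57-fold in DAC (-0.65 ± 0.12, adjusted p = 0.00547) and 3.06-fold in DAC+OSI (-1.62 ± 0.13, adjusted p = 1.58e-06). These calls held in all 15 alternatives of each comparison.

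TGFA encodes transforming growth factor alpha, a ligand of EGFR alone. It had 46.4, 46.2 and 42.2 CPM in OSI, 40.9, 40.0 and 38.1 CPM in DAC, 36.1, 29.4 and 33.8 CPM in DAC+OSI, and 69.2, 55.05 and 57.5 CPM in Control libraries. Here the order of the single treatments was the other way round from AREG, EREG and HBEGF, with every DAC library below every OSI library, although the difference between them did not pass the test (-0.18 ± 0.12, interval -0.45 to 0.09, adjusted p = 0.336). Of 15 alternatives 3 called that difference: the fit of these groups alone (-0.19, adjusted p = 0.0285), the 10-library fit (-0.19, adjusted p = 0.0390) and the GC correction (-0.30, adjusted p = 0.0202). TGFA fell 1.53-fold in DAC (-0.61 ± 0.13, adjusted p = 0.00879) and 1.83-fold in DAC+OSI (-0.87 ± 0.13, adjusted p = 2.30e-04), both called in all 15 alternatives. Its fall in OSI was 1.35-fold (-0.43 ± 0.13, adjusted p = 0.0285), and that call was lost without OSI 1 (adjusted p = 0.0591), OSI 2 (0.0626), OSI 3 (0.106) or Control 1 (0.116), and without the filter on low counts (0.0952).

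BTC encodes betacellulin, a ligand of EGFR and ERBB4. Its level was 8.63, 7.35 and 7.67 CPM in OSI, 9.44, 8.004 and 7.41 CPM in DAC, 8.24, 4.18 and 8.85 CPM in DAC+OSI, and 13.5, 7.84 and 13.4 CPM in Control libraries. Control 2 and DAC+OSI 2 were the lowest libraries of their groups, and through Control 2 each treated group overlapped Control. The fit of all 12 libraries called BTC in no comparison: the log2 change was -0.56 ± 0.26 in OSI (interval -1.12 to 0.01, adjusted p = 0.167), -0.48 ± 0.26 in DAC (adjusted p = 0.290) and -0.69 ± 0.26 in DAC+OSI (adjusted p = 0.067). In the 10-library fit the same values were -0.77 (adjusted p = 2.97e-05), -0.71 (1.48e-04) and -0.66 (3.68e-04), all called. Without Control 2 alone they were called in OSI (-0.76, adjusted p = 0.0497) and in DAC+OSI (-0.92, adjusted p = 0.0162), and without DAC+OSI 3 the value of DAC+OSI was -0.89 (adjusted p = 0.0364). With all 12 libraries, the GC correction called it in OSI (-0.45, adjusted p = 0.0291), DAC (-0.65, 0.00592) and DAC+OSI (-0.65, 0.00261). In DAC+OSI it was also called by DESeq2 (-0.70, adjusted p = 0.0299) and without the filter (-0.72, adjusted p = 0.00522). With the replicate number as a block BTC was called in DAC+OSI (-0.70, adjusted p = 0.0225), but whether that number pairs the libraries was not tested.

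EPGN encodes epigen, a weak ligand of EGFR, and was the scarcest of the 8. It had 22, 18 and 15 counts in OSI, 40, 71 and 50 counts in DAC, 21, 2 and 21 counts in DAC+OSI, and 117, 103 and 88 counts in Control libraries. In CPM this was 0.530, 0.373 and 0.321 in OSI, 0.736, 1.21 and 0.973 in DAC, 0.373, 0.0973 and 0.311 in DAC+OSI, and 1.90, 2.44 and 2.04 in Control. Every treated library lay below every Control library, and DAC+OSI 2, with 2 counts, lay under the limit of 3. EPGN fell 5.20-fold in OSI (-2.38 ± 0.34, adjusted p = 3.67e-04) and 7.31-fold in DAC+OSI (-2.87 ± 0.36, adjusted p = 6.73e-05; -2.53 in the 10-library fit). Its 2.17-fold fall in DAC (-1.12 ± 0.31, adjusted p = 0.0409) was lost by leaving out a library: without any 1 of the libraries DAC 1, DAC 2, DAC 3, Control 1, Control 2 and Control 3 it was not called, with adjusted p between 0.0598 and 0.158.

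ADAM17, also known as TACE, is the main sheddase of most of these ligands. Its level was 61.6, 62.9 and 65.7 CPM in OSI, 73.4, 73.2 and 73.3 CPM in DAC, 84.0, 62.6 and 87.7 CPM in DAC+OSI, and 84.2, 71.7 and 81.8 CPM in Control libraries. The OSI libraries all lay below Control, and DAC+OSI 2 lay apart from its group. No test called it: the log2 change was -0.32 ± 0.13 in OSI (interval -0.61 to -0.03, adjusted p = 0.116), -0.11 ± 0.13 in DAC (interval -0.40 to 0.17, adjusted p = 0.657) and -0.02 ± 0.13 in DAC+OSI (interval -0.31 to 0.27, adjusted p = 0.935). The 10-library fit called the difference in OSI (-0.38, adjusted p = 8.71e-05) and in DAC (-0.19, adjusted p = 0.0408; -0.35 with the GC correction, adjusted p = 0.0321), and in DAC+OSI it turned the sign, to 0.05 (adjusted p = 0.654). ADAM17 shares 1323 exonic bases with IAH1 on the other strand, and since the strand setting of the counting is not given, reads of both genes cannot be told apart there.

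ADAM10 encodes the sheddase of BTC, which also cuts Notch and many other surface proteins. It had 115, 113 and 119.8 CPM in OSI, 129.97, 123 and 128 CPM in DAC, 117, 62.8 and 101 CPM in DAC+OSI, and 119, 87.3 and 115 CPM in Control libraries. The DAC libraries all lay above Control, and DAC+OSI 2 and Control 2 were the lowest of all. Its log2 change was 0.12 ± 0.19 in OSI (interval -0.30 to 0.53, adjusted p = 0.741), 0.25 ± 0.19 in DAC (interval -0.17 to 0.66, adjusted p = 0.479) and -0.19 ± 0.19 in DAC+OSI (interval -0.61 to 0.22, adjusted p = 0.501). The value in OSI was -0.0037 in the 10-library fit and -0.0034 without Control 2. By edgeR, 0 of the 2 sheddase genes were called in each of these comparisons; at an unadjusted p under 0.05 the counts were 1 in OSI, 0 in DAC and 0 in DAC+OSI, and DESeq2 and limma-voom called 0 in each.

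**Figure D2:**
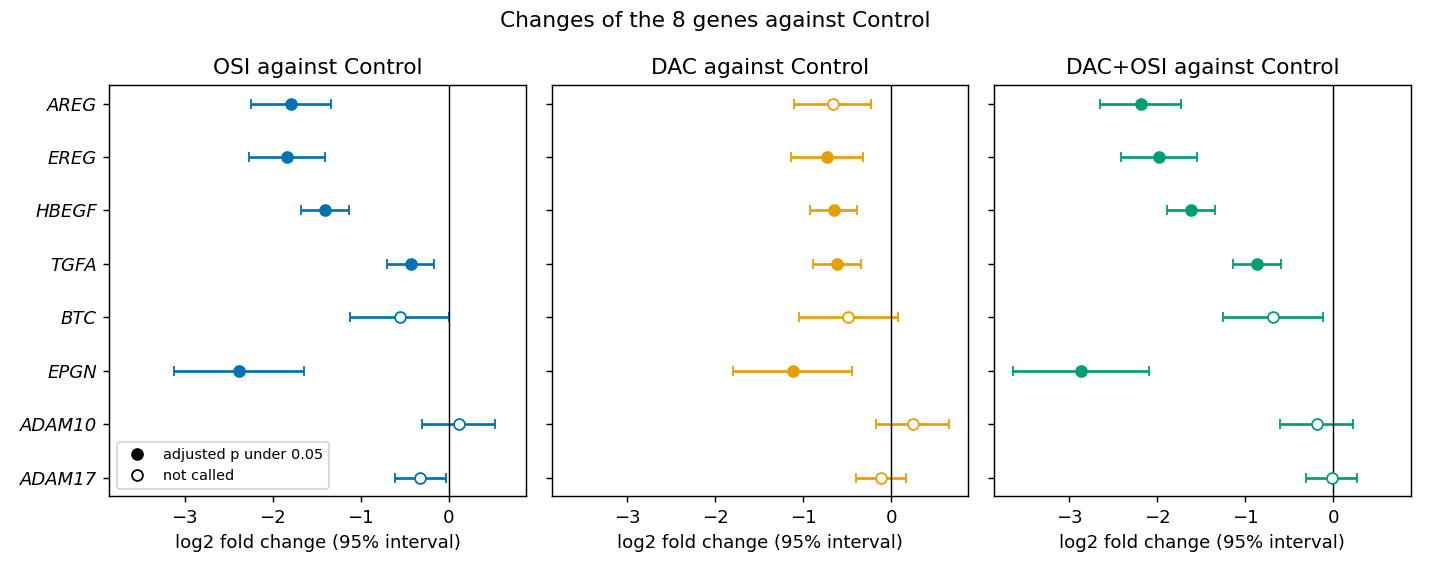
Log2 change against Control of each of the 8 genes (rows) in OSI, DAC and DAC+OSI, with bars for the 95% interval and filled points for calls at an adjusted p under 0.05. AREG, EREG, HBEGF and EPGN reach -1.40 or lower in OSI and DAC+OSI and lie between -1.12 and -0.65 in DAC. The sheddases have no filled point and lie between -0.32 (ADAM17 in OSI, interval -0.61 to -0.03) and 0.25 (ADAM10 in DAC).

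Setting the combination against osimertinib alone asks what dauricine added. Only TGFA was called, 1 of the 8 genes, where 7.96% of all tested genes were called lower. TGFA was 1.35-fold lower in DAC+OSI than in OSI (-0.44 ± 0.13, adjusted p = 0.0304), and the call was lost without OSI 1 (adjusted p = 0.0797), OSI 2 (0.0895) or DAC+OSI 3 (0.057), in a fit of these groups alone (0.105) and without the filter on low counts (0.0752). The differences of the other ligand genes were -0.39 ± 0.21 for AREG (interval -0.85 to 0.06), -0.14 ± 0.20 for EREG (-0.57 to 0.29), -0.21 ± 0.12 for HBEGF (-0.48 to 0.06), -0.13 ± 0.26 for BTC and -0.49 ± 0.38 for EPGN (-1.32 to 0.34), none of which passed the test. ADAM17 differed by 0.30 ± 0.13 (interval 0.02 to 0.59, adjusted p = 0.146), and was called without DAC+OSI 2 (0.41, adjusted p = 0.00447) and in the 10-library fit (0.43, adjusted p = 2.67e-05). ADAM10 differed by -0.31 ± 0.19 (adjusted p = 0.317), and was called with the GC correction (-0.38, adjusted p = 0.00388).

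Setting the combination against dauricine alone asks what osimertinib added, and here 4 ligand genes were lower in DAC+OSI, where 4.52% of genes tested were called lower. AREG was 2.88-fold lower (-1.53 ± 0.21, adjusted p = 6.59e-04), EREG 2.38-fold (-1.25 ± 0.20, adjusted p = 0.00168) and HBEGF 1.95-fold (-0.96 ± 0.12, adjusted p = 4.27e-04), all in each of 15 alternatives. EPGN was 3.36-fold lower (-1.75 ± 0.36, adjusted p = 0.00776), with a single alternative, the fit of these groups alone, giving an adjusted p of 0.0652. TGFA was lower in every DAC+OSI library than in every DAC library, but by -0.26 ± 0.13 with an adjusted p of 0.213. BTC differed by -0.20 ± 0.26 and ADAM17 by 0.09 ± 0.13, neither called. ADAM10 differed by -0.44 ± 0.19 (interval -0.85 to -0.02, adjusted p = 0.169), with an adjusted p of 0.0455 without DAC+OSI 1 (-0.62) and 0.0351 in the 10-library fit (-0.22); in that fit ADAM17 was called as well (0.23, adjusted p = 0.0123), as it was with the GC correction (0.38, adjusted p = 0.0267).

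The single treatments were also compared directly. AREG, EREG, HBEGF and EPGN were higher in DAC than in OSI, 4 of the 8 genes, where 10.2% of all tested genes were called higher. The differences were 2.19-fold for AREG (1.13 ± 0.21, adjusted p = 0.00194), 2.16-fold for EREG (1.11 ± 0.20, adjusted p = 0.00152), 1.68-fold for HBEGF (0.75 ± 0.12, adjusted p = 9.32e-04) and 2.40-fold for EPGN (1.26 ± 0.34, adjusted p = 0.0208). For EPGN the call was lost without OSI 2 (adjusted p = 0.079), OSI 3 (0.0925), DAC 2 (0.0945) or DAC 3 (0.0605). BTC did not pass (0.07 ± 0.26, adjusted p = 0.874). Both sheddases lay higher in every DAC library than in every OSI library, by 0.13 for ADAM10 (adjusted p = 0.665) and 0.21 for ADAM17 (adjusted p = 0.285), and neither was called. ADAM17 was called in the fit of these groups alone (0.19, adjusted p = 0.0164) and in the 10-library fit (0.19, adjusted p = 0.00981), where TGFA, lower in DAC, was called as well. With the GC correction both sheddases turned sign, to -0.21 for ADAM10 and -0.12 for ADAM17 (adjusted p = 0.0830 and 0.440). Doses are not given, so the sizes do not rank the compounds.

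Whether the effect of dauricine was the same with and without osimertinib was tested as an interaction, which is the log2 difference of DAC+OSI over OSI minus that of DAC over Control. By edgeR 0 of the 8 genes were called, 2 had an unadjusted p under 0.05 (HBEGF and ADAM17), and DESeq2 and limma-voom also called 0; over all genes tested 2.92% were called. The estimate was above 0 for all 6 ligand genes, so by point estimate the combination lay less far below Control than the sum of the single changes. The interval included 0 for each of them except HBEGF. The median estimate was 0.40 for the ligand genes, 0.30 for the 44 pathway genes tested and 0.02 for all genes tested. The Control libraries enter both the falls and the interaction. How often other genes that fell had an estimate above 0 was not counted, so the shared sign is only a description. For EREG the single changes summed to -2.57 and the combination stood at -1.98, an interaction of 0.59 ± 0.27 (interval -0.0045 to 1.18, adjusted p = 0.328). For HBEGF the sum was -2.06 and the combination -1.62, an interaction of 0.44 ± 0.17 (interval 0.06 to 0.82, adjusted p = 0.239). AREG gave 0.27 ± 0.29, TGFA 0.18 ± 0.18, BTC 0.35 ± 0.37 and EPGN 0.63 ± 0.50, with adjusted p from 0.604 to 0.732.

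Of the sheddases, ADAM17 had an interaction of 0.41 ± 0.19 (interval 0.01 to 0.82, adjusted p = 0.312) and ADAM10 of -0.55 ± 0.27 (interval -1.14 to 0.03, adjusted p = 0.357). In the 10-library fit 4 genes were called, EREG (0.80, adjusted p = 0.00235), HBEGF (0.49, 0.00915), BTC (0.81, 0.00175) and ADAM17 (0.61, 8.48e-05). Without DAC+OSI 2 alone, HBEGF (0.52, adjusted p = 0.0496) and ADAM17 (0.55, adjusted p = 0.0151) were called. Over all genes these fits called 4339 and 1463, against 608 with all 12 libraries. Both fits leave out libraries because they deviate from their groups, which narrows the spread, so their smaller p-values are not independent support. With the GC correction, which keeps all 12 libraries, ADAM17 was called (0.61, adjusted p = 0.0236) and the other 7 genes were not, EREG having 0.76 (adjusted p = 0.0930) and HBEGF 0.44 (adjusted p = 0.0941).

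**Figure D3:**
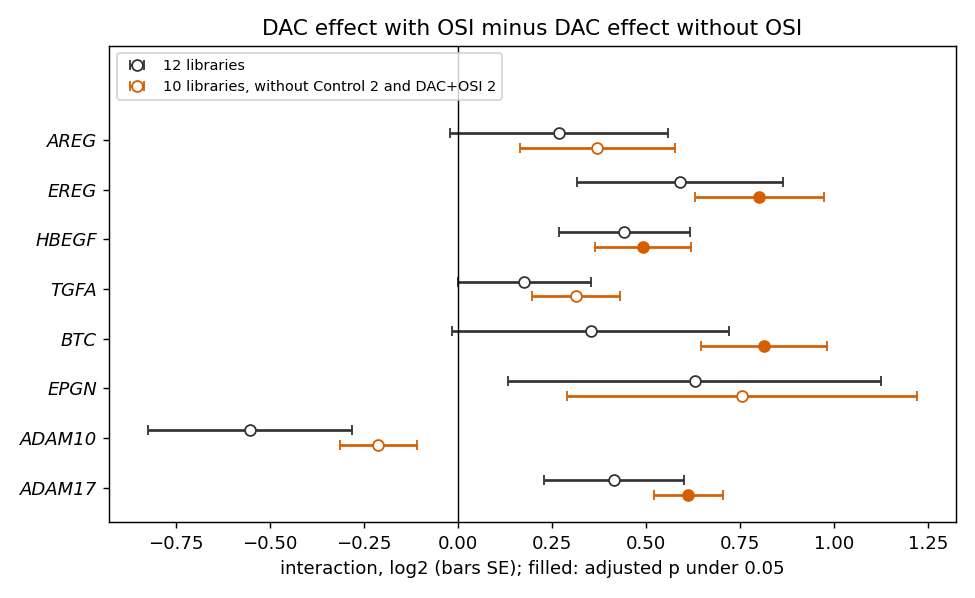
Interaction estimate (log2 scale, bars SE) of each of the 8 genes in the fit of all 12 libraries and in the fit of 10 libraries without DAC+OSI 2 and Control 2; filled points have an adjusted p under 0.05. The 6 ligand genes have estimates between 0.18 and 0.63 in the 12-library fit, where no point is filled, and 4 points are filled in the 10-library fit.

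Levels of different genes can be compared only per length, taken here as CPM per kilobase (kb) of exon in GENCODE 29. On that scale the most abundant of the 8 in OSI was TGFA (9.05 CPM per kb), followed by ADAM10 (7.17), ADAM17 (5.90), HBEGF (5.59) and AREG (3.87). In Control it was HBEGF (14.8 ± 0.987), followed by AREG (13.4 ± 2.13) and TGFA (12.2 ± 1.53), whose spreads overlap, and then by ADAM17 (7.37), ADAM10 (6.62), BTC (4.11), EREG (3.70) and EPGN (1.17). By exon length the means of both sheddases thus stood above HBEGF and AREG in OSI and below them in Control. In OSI the ranges of ADAM17 (5.73 to 6.11) and HBEGF (5.46 to 5.78) overlapped. With coding length in place of exon length the order differed, with TGFA highest in Control (122 CPM per kb of coding sequence) and AREG in place 6 of 8 (26.9). ADAM17 (25.6) then lay below HBEGF (27.0) in OSI, and ADAM10 (47.7) and ADAM17 (32.0) lay above AREG in Control. The order of genes within a group, and where the sheddases stood in it, thus depends on the length used.

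The ligand RNA summed over the 6 genes was 22.6 ± 1.65 CPM per kb in OSI, 31.6 ± 1.03 in DAC, 17.99 ± 2.87 in DAC+OSI and 49.4 ± 4.22 in Control (SD, n = 3 each). Relative to the Control mean these levels were 45.7% in OSI, 63.9% in DAC and 36.4% in DAC+OSI, and no treated library reached the lowest Control library. Its make-up differed too. TGFA provided 40.2 ± 1.93% of the sum in OSI, 25.3 ± 1.36% in DAC, 37.4 ± 3.09% in DAC+OSI and 24.7 ± 1.37% in Control. The range was 38.3 to 42.1% in OSI and 34.2 to 40.3% in DAC+OSI, against 23.1 to 25.7% in Control. AREG provided 17.0% in OSI, 26.8% in DAC, 15.9% in DAC+OSI and 27.1% in Control, and HBEGF 24.8%, 29.8%, 26.95% and 30.02% in the same order. The DAC libraries thus had less ligand RNA than Control in nearly the Control proportions, whereas the groups with osimertinib had a larger share of TGFA. With coding length in place of exon length, the summed ligand RNA was 52.8% of the Control mean in OSI, 64.2% in DAC and 41.7% in DAC+OSI. TGFA then provided 59.2 ± 1.77% of the sum in OSI, 43.0 ± 1.17% in DAC, 55.6 ± 2.65% in DAC+OSI and 42.2 ± 0.785% in Control, so the size of these shares depends on the length used, while their order over the groups does not. These sums describe genes already tested one by one and carry no test of their own.

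**Figure D4:**
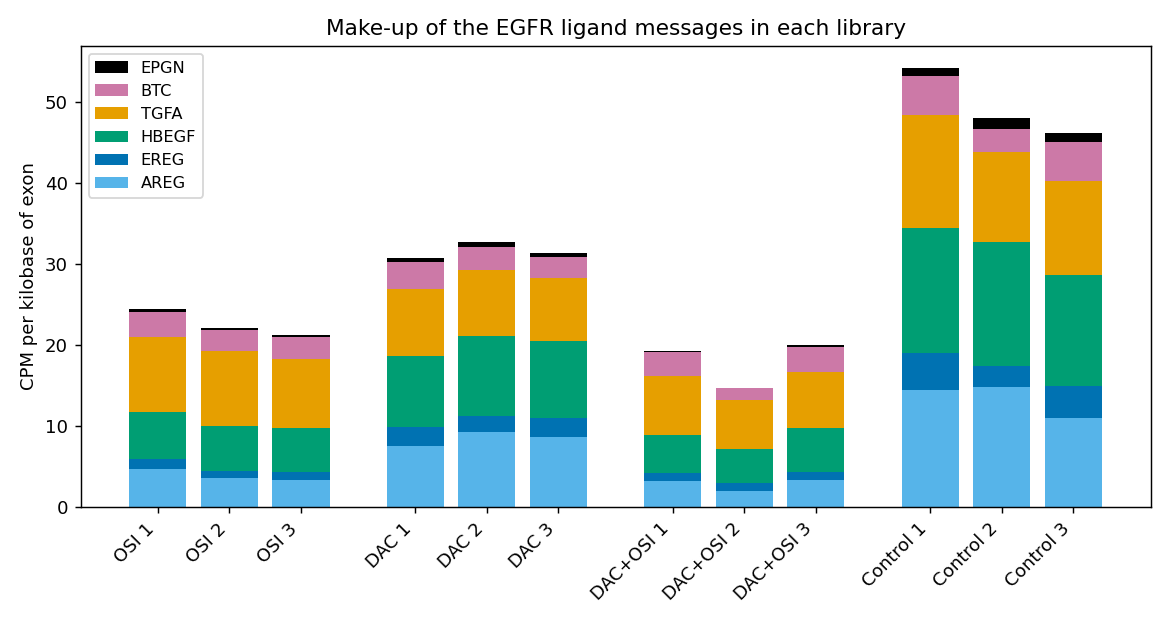
Summed CPM per kb of the 6 ligand genes in each library, stacked by gene, with groups in the order OSI, DAC, DAC+OSI and Control. The sums lie between 14.7 and 32.7 in treated libraries, all below the Control range of 46.1 to 54.2, and TGFA is the largest component in OSI and DAC+OSI.

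In the annotation, 4 of the ligand genes lie side by side on chromosome 4 within 486 kb, in the order EPGN, EREG, AREG and BTC, with BTC on the minus strand (GENCODE 29, GRCh38). The 3 genes on the plus strand had log2 changes of -2.38, -1.84 and -1.80 in OSI, -1.12, -0.73 and -0.66 in DAC, and -2.87, -1.98 and -2.19 in DAC+OSI. BTC, at the far end, gave -0.56, -0.48 and -0.69 and was not called. The nearest tested protein-coding gene before the cluster, MTHFD2L, a folate enzyme 5.37 kb away, fell in OSI (-0.96 ± 0.27, adjusted p = 0.0256). MTHFD2L was not called in DAC, where its value was above 0 (0.10, adjusted p = 0.858), or in DAC+OSI (-0.67, adjusted p = 0.0816). Its call in OSI was lost without any 1 of OSI 1, OSI 2, OSI 3, Control 1 and Control 3, with adjusted p up to 0.111. In the 10-library fit its value in OSI was -1.21 (adjusted p = 2.41e-06). PARM1, the nearest after it at 138 kb, had -0.03 in OSI (adjusted p = 0.926) and -0.59 in DAC (adjusted p = 0.0534), and fell in DAC+OSI (-1.18 ± 0.18, adjusted p = 3.34e-04). RCHY1, 684 kb after the cluster, also fell in DAC+OSI (-0.58 ± 0.16, adjusted p = 0.0155), a call lost in a fit of these groups alone (0.0852). CXCL3, 270 kb before the cluster, rose in DAC+OSI (2.85 ± 0.62, adjusted p = 0.00422), to a mean of 0.942 CPM. The other neighbours shown, CXCL2 and THAP6, were not called.

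**Figure D5:**
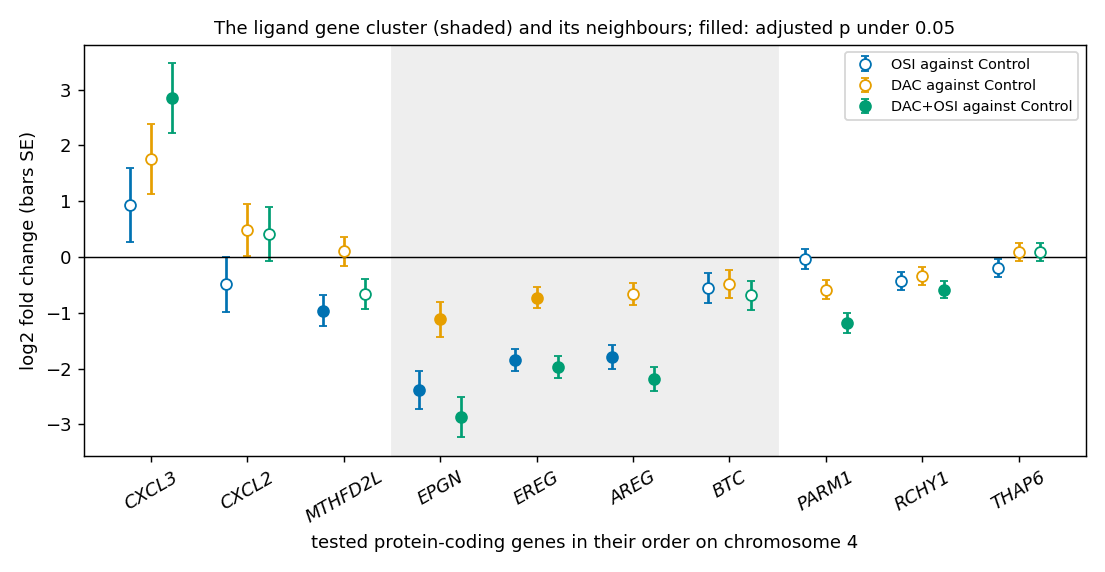
Log2 change against Control (bars SE) of the 4 clustered ligand genes, shaded, and of the nearest tested protein-coding genes on each side, in their order on chromosome 4, for OSI, DAC and DAC+OSI; filled points have an adjusted p under 0.05. EPGN, EREG and AREG are the lowest points in OSI and DAC+OSI, and the neighbours lie closer to 0 or, for CXCL3, above it at under 1 CPM.

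For each of the 8 except EPGN, the genes whose log2 CPM followed it most closely over the 12 libraries were listed. Closeness was Pearson's r among 11757 genes with at least 5 CPM in a group. The libraries share their 4 treatment groups, so r reflects mainly differences between groups, and it is given as a description. For AREG they were ARF6 (0.986), CD274 (0.984), HBEGF (0.983), PRMT5 (0.979) and EMP1 (0.978). For HBEGF they were SMURF2 (0.993), IL1RL1 (0.988), PRMT5 (0.985), EMP1 (0.985) and GPAT3 (0.984), and for EREG SLC16A1-AS1 (0.981), IL1RL1 (0.969), GPAT3 (0.967), ITGA6 (0.965) and AOX1 (0.965). No gene of the lists of AREG, EREG or HBEGF recurred for TGFA, whose closest were CACNG6 (0.963), NRP2 (0.962) and AKAP12 (0.955). USP25 (0.982) was closest to BTC, LANCL1 (0.979) to ADAM10 and PPM1A (0.945) to ADAM17, and EPGN lay under the 5 CPM.

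Other genes of the pathway were read from 7 lists with 46 genes, of which 44 were tested. Against Control, 5 were higher and 12 lower in OSI, 1 was higher and 6 lower in DAC, and 9 were higher and 12 lower in DAC+OSI. In the 10-library fit 14 were higher and 18 lower in OSI, 7 and 13 in DAC, and 14 and 20 in DAC+OSI; that fit also called more genes in all, 9076, 5541 and 8778 in these comparisons. The median log2 change of the 44 in all 12 libraries was -0.14, -0.10 and -0.11 in these comparisons. Among all genes tested, 10.6% were higher and 8.23% lower in OSI, 5.33% and 4.11% in DAC, and 15.4% and 12.8% in DAC+OSI.

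Among the receptors, EGFR itself fell in all treated groups, to 1339 ± 158 CPM in OSI, 1334 ± 114 CPM in DAC and 1028 ± 95.2 CPM in DAC+OSI, against 2261 ± 172 CPM in Control. The falls were 1.69-fold (adjusted p = 0.00124), 1.69-fold (0.00282) and 2.20-fold (3.42e-05) and held in all 15 alternatives. ERBB3, a partner receptor with little kinase activity of its own, rose 1.495-fold in OSI (adjusted p = 0.00246). ERBB2, the receptor without a ligand, rose 1.57-fold in OSI (adjusted p = 0.0255) and 1.64-fold in DAC+OSI (adjusted p = 0.0113), calls that were lost without Control 1 or Control 3, in OSI also without OSI 1, OSI 2 or OSI 3, and in DAC+OSI also in a fit of these groups alone (adjusted p = 0.108). ERBB4 had too few counts to be tested.

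EGF, the ligand after which the family is named, was higher in OSI, where 5 of the 6 ligand genes were called lower. It had 3.99 ± 0.644 CPM in OSI, 2.19 ± 0.364 CPM in DAC, 2.44 ± 0.596 CPM in DAC+OSI and 1.90 ± 0.336 CPM in Control. It did not pass the test in DAC (log2 change 0.20, adjusted p = 0.644) or DAC+OSI (0.38, adjusted p = 0.246). Its 2.10-fold rise in OSI (adjusted p = 0.00567) held in all 15 alternatives. NRG1, a ligand of ERBB3 and ERBB4, fell 2.56-fold in DAC (adjusted p = 0.0251) and 1.999-fold in DAC+OSI (adjusted p = 0.0431). The first call was lost without DAC 1, DAC 3 or Control 2, and the other without DAC+OSI 1, DAC+OSI 3, Control 1, Control 2 or Control 3, with the GC correction (adjusted p = 0.0639) and in a fit of these groups alone (0.0810). NRG2 rose in DAC+OSI (log2 change 2.87, adjusted p = 0.0227) at 23 to 25 counts a library, against 0 to 8 in Control, and its call was lost without Control 2 or Control 3 and in a fit of these groups alone (adjusted p = 0.0617).

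Proteases other than ADAM10 and ADAM17 that can cut ligands of the family numbered 7. In OSI 1 was higher and 3 lower, and 0 of 7 were called in DAC by edgeR (2 at an unadjusted p under 0.05, 0 by DESeq2 and 0 by limma-voom). In the 10-library fit 2 were higher and 3 lower in OSI, 1 and 2 in DAC, and 1 and 4 in DAC+OSI, where the 12-library fit called 1 and 2. Over all genes the 10-library fit called 9076, 5541 and 8778 in either direction, against 3926, 1964 and 5860 with 12 libraries. ADAM19 fell to 6.12 ± 0.707 CPM in OSI, against 18.3 ± 1.64 CPM in Control (2.99-fold, adjusted p = 1.33e-05), and ADAM12 fell 1.48-fold in OSI (adjusted p = 0.00847) and 1.54-fold in DAC+OSI (adjusted p = 0.00317). ADAM8 fell 2.22-fold in OSI (adjusted p = 0.0127), a call that was lost without OSI 1, OSI 2 or Control 2. RHBDL2, a rhomboid protease that cuts EGF, rose 2.03-fold in OSI (adjusted p = 0.0178), which was lost without OSI 1, OSI 3 or Control 2.

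The partners of the sheddases are the iRhoms and FRMD8, which carry ADAM17 to the surface, tetraspanins, which do so for ADAM10, the inhibitors TIMP1 and TIMP3, and the proprotein convertases. Of these 13 genes, 1 was higher and 2 lower in OSI, 1 higher and 1 lower in DAC, and 4 higher and 2 lower in DAC+OSI. In the 10-library fit 8 were higher and 2 lower in OSI, 3 and 1 in DAC, and 8 and 2 in DAC+OSI, so the balance in OSI depends on the libraries DAC+OSI 2 and Control 2. That fit also called more of all genes, 9076, 5541 and 8778 in these comparisons, against 3926, 1964 and 5860 with 12 libraries. TIMP3, the matrix-bound inhibitor of ADAM17, had 224 ± 25.8 CPM in OSI, 66.5 ± 3.57 CPM in DAC, 74.3 ± 4.57 CPM in DAC+OSI and 185 ± 6.22 CPM in Control. It fell 2.79-fold in DAC (adjusted p = 8.04e-06) and 2.49-fold in DAC+OSI (adjusted p = 3.91e-06), in all 15 alternatives of both. TSPAN5, a partner of ADAM10, fell 1.63-fold in OSI (adjusted p = 0.0111) and rose 1.496-fold in DAC (adjusted p = 0.0472), the rise being lost without any 1 library of DAC or Control and without the filter (adjusted p = 0.0506). TSPAN10 rose 2.12-fold in DAC+OSI (adjusted p = 0.00938), where 1 library had 22.2 CPM and the others 9.30 and 10.1 CPM; the log2 change was 1.08 over all libraries and 0.54 in the 10-library fit (adjusted p = 0.00298), and a fit of these groups alone did not call it (adjusted p = 0.0813). TSPAN17 rose 1.30-fold in DAC+OSI (adjusted p = 0.0151), a log2 change of 0.38 that was 0.14 and not called with the GC correction (adjusted p = 0.237); the call was also lost without Control 1 or Control 3, without the filter (0.199) and in a fit of these groups alone (0.161).

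Of the genes that carry ligand precursors to the surface, CNIH1, a cargo receptor of TGFA, fell 1.49-fold in OSI (adjusted p = 0.00252) and 1.47-fold in DAC+OSI (adjusted p = 0.00217). Both calls were lost with the GC correction (adjusted p = 0.0941 in OSI and 0.0790 in DAC+OSI). AP1M2, an adaptor for sorting to the basolateral side of epithelial cells, rose 1.58-fold in DAC+OSI (adjusted p = 0.0155), which was lost without Control 1 or Control 3 and in a fit of these groups alone (adjusted p = 0.122). Of the 3 trafficking genes, edgeR called 0 higher and 1 lower in OSI, and 1 and 1 in DAC+OSI. In DAC it called 0 (1 at an unadjusted p under 0.05, 1 by DESeq2 and 1 by limma-voom). In the 10-library fit 1 was higher and 2 lower in OSI, 1 and 1 in DAC, and 1 and 2 in DAC+OSI. Of 6 genes that restrain EGFR, 0 were higher and 2 lower in OSI, 0 were called in DAC by edgeR (1 at an unadjusted p under 0.05, 1 by DESeq2 and 1 by limma-voom), and 1 was higher and 2 lower in DAC+OSI. The 10-library fit called 0 higher and 4 lower in OSI, 1 and 2 in DAC, and 1 and 3 in DAC+OSI. Over all genes it called 9076, 5541 and 8778 in either direction, against 3926, 1964 and 5860 with 12 libraries. ERRFI1, which encodes the EGFR inhibitor MIG6 and is induced by EGFR signalling, fell to 96.9 ± 10.8 CPM in OSI (2.53-fold, adjusted p = 4.96e-05) and 99.0 ± 17.9 CPM in DAC+OSI (2.48-fold, adjusted p = 3.24e-05), against 211 ± 5.94 CPM in DAC and 246 ± 26.8 CPM in Control. CBL, a ubiquitin ligase of EGFR, fell 1.60-fold in OSI (adjusted p = 0.00423) and 1.69-fold in DAC+OSI (adjusted p = 0.00134), whereas its relative CBLB rose 2.40-fold in DAC+OSI (adjusted p = 4.29e-05).

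Of 8 transcription factor genes of the AP-1, EGR and CREB families that act on ligand promoters, 3 were lower in each of OSI, DAC and DAC+OSI, and none was higher. The 10-library fit called 6 lower in OSI, 5 in DAC and 7 in DAC+OSI, again with none higher. Over all genes that fit called 9076, 5541 and 8778 in either direction, against 3926, 1964 and 5860 with 12 libraries. FOSL1, the AP-1 subunit FRA1, had 59.3 ± 4.39 CPM in OSI, 87.8 ± 16.6 CPM in DAC, 35.2 ± 11.9 CPM in DAC+OSI and 213 ± 41.1 CPM in Control. It fell 3.60-fold (adjusted p = 1.18e-04), 2.43-fold (0.00344) and 6.08-fold (4.58e-06) in these treated groups. CREM, a factor that binds the cyclic AMP response element, fell 1.78-fold, 1.64-fold and 1.99-fold (adjusted p = 3.78e-04, 0.00268 and 5.81e-05), and like FOSL1 it was called in all 15 alternatives of each. EGR1, an immediate early gene downstream of ERK, fell 2.14-fold in OSI (adjusted p = 0.0229; lost without OSI 1, OSI 2, OSI 3 or Control 2) and 2.88-fold in DAC+OSI (adjusted p = 0.00242). ATF3 fell 1.44-fold in DAC (adjusted p = 0.0211), which was lost without DAC 2, DAC 3 or Control 2. The levels of these factors and of the ligand genes come from the same libraries, and a link between them was not tested.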

How the data were processed

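Poly(A) RNA of 12 PC9-OR libraries was enriched with oligo(dT) beads, primed with random hexamers and amplified by PCR, per the labels' protocols. The deposited values are raw counts per Ensembl gene, made with CASAVA, HISAT2 and featureCounts per the submitters' processing notes. The genome build, the annotation, the strand setting and the tool versions were not given in the sources used here. Symbols came from a gene name table (39178 of 39266 identifiers), lengths and positions from GENCODE 29 (37919) and promoter sequences from RefSeq.

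Counts were filtered with filterByExpr and scaled by TMM in edgeR 4.0.16 (R 4.3.3, limma 3.58.1, DESeq2 1.42.0, Python 3.11.15). A quasi-likelihood model with a mean for each group took in all 12 libraries (biological coefficient of variation 20.9%). Two-sided p-values were adjusted by Benjamini-Hochberg over the 20820 genes tested in each of 7 comparisons, with calls at an adjusted p under 0.05. The standard error is the log2 change divided by the square root of F, intervals are 95% intervals and ± on CPM is the SD of 3 libraries. The fit was tested on simulated data. The members, the gene lists and the alternatives were chosen with earlier results of these data known. Named genes are the 8 members, and from each list up to 4 genes called against Control with the smallest adjusted p. As alternatives, scaling was by RLE or upper quartile, the filter was dropped, and DESeq2 or limma-voom replaced edgeR. Fits were also run on the compared groups alone, without each library in turn, with the replicate block and on 10 libraries. A correction for gene GC content was added after seeing the data. It took the trend of each library against the mean of all 12 libraries, so it can also remove differences between groups that follow GC content. Same-numbered libraries of DAC+OSI and Control, whose shared numbers come from the titles, deviated together (r = 0.29, 0.43 and 0.20). In both groups, library 2 deviated with GC content in the opposite direction from libraries 1 and 3. Differently numbered libraries were not compared, so whether the numbers pair the libraries was not tested. All other pairs of groups had r between -0.06 and 0.08.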

Additional observations from a re-analysis of the deposited data

Results flagged for a closer look

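In the fit of all 12 libraries, ADAM19 alone among the 8 genes and the 44 pathway genes tested had a called interaction between the compounds. Over all genes tested 2.92% were called, and this lone call does not exceed that share. ADAM19 encodes a metalloprotease that can cut neuregulin. The 10-library fit called 4 of the 8 genes and 15 of the 44 pathway genes tested, 9 of these above 0 and 6 below. That fit called 4339 genes in all, against 608 with 12 libraries. ADAM19 averaged 6.12 ± 0.707 CPM in OSI, 19.4 ± 1.70 CPM in DAC, 13.6 ± 1.86 CPM in DAC+OSI and 18.3 ± 1.64 CPM in Control (SD, n = 3 each). The effect of dauricine was larger with osimertinib than without it by 1.06 on the log2 scale (edgeR, adjusted p = 0.0136), and by 0.88 in the 10-library fit (adjusted p = 4.53e-04). The call was made in 16 of 20 alternatives and lost without OSI 1, OSI 3, DAC 2 or DAC 3.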

How the results depend on the processing

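Of 880 values of member changes under alternative settings, 796 kept direction and side of the threshold, 27 lost a call, 43 gained one and 14 turned sign, none of those a called result. The members called were 7 rather than 4 for DAC against Control in the 10-library fit and 7 with the GC correction; 2 in the 10-library fit, 2 with the GC correction, 0 without the filter and 0 in a fit of the groups compared, rather than 1, for DAC+OSI against OSI; and 4 and 1, rather than 0, for the interaction in the 10-library fit and with the GC correction. Leaving out 1 library at a time gave 4 to 6 for OSI, 2 to 3 for DAC and 5 to 6 for DAC+OSI against Control, 0 to 2 for DAC+OSI against OSI, 4 to 5 for DAC+OSI against DAC, 3 to 4 for DAC against OSI and 0 to 2 for the interaction. With the replicate block the counts were 5, 3, 6, 1, 4, 4 and 0 in that order. Apart from DAC+OSI and Control, same-numbered libraries did not deviate together, and whether the number pairs those groups was not tested. In DAC against Control the block gave EPGN an adjusted p of 0.0519. The signs that turned were those of ADAM10 in OSI against Control (-0.0037 in the 10-library fit, -0.0034 without Control 2), ADAM17 in DAC+OSI against Control (0.0453 in the 10-library fit, 0.0243 with the GC correction, 0.0862 without DAC+OSI 2, 0.0011 without Control 1), BTC in DAC+OSI against OSI (0.11 in the 10-library fit, 0.0891 without DAC+OSI 2) and against DAC (0.0480 and 0.0406 in the same fits), and in DAC against OSI BTC (-0.20), ADAM10 (-0.21) and ADAM17 (-0.12) with the GC correction and BTC (-0.0428) without DAC 1. Leaving out 1 library at a time, these reached up to 0.18 for ADAM10 in OSI against Control and 0.13 for BTC in DAC against OSI, and down to -0.13 for ADAM17 in DAC+OSI against Control, -0.33 for BTC in DAC+OSI against OSI and -0.38 against DAC. The cause was not tested. Over all genes the 10-library fit called 9076, 5541, 8778, 8730, 5092, 10332 and 4339 genes, against 3926, 1964, 5860, 3533, 2211, 4311 and 608; the interaction also reached 1354 without the filter, 1318 by DESeq2 and 1662 with the GC correction. Depth limits EPGN most, with 2 to 21 counts in DAC+OSI.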
